A study of Mus musculus with 24 samples.

Results

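The collagen and laminin genes of the mouse uterus were read by 58 probe sets for 40 genes. They were taken as all probe sets whose platform annotation names only 1 gene, with a symbol of the form Col, number, a, number (a collagen chain) or Lama, Lamb or Lamc with a number (a laminin chain). Collagens made up 31 genes with 44 probe sets and laminins 9 genes with 14 probe sets, of 8251 genes with 10833 such probe sets on the array. For 14 of the 40 genes more than 1 probe set was present, and each is given apart.

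Uteri came from wild-type mice and from PRKO mice, which lack the progesterone receptor. All mice, the vehicle groups included, had been ovariectomized at 6 weeks of age, and 2 weeks later received progesterone (P4, 1 mg in 100 µl of sesame oil) or sesame oil alone. Tissue was taken 4 h after the first of these injections (called 4 h), or 4 h after the fourth of 4 injections spaced 12 h apart (called 40 h). Genotype, treatment and time gave 8 groups of 3 Affymetrix arrays, 24 in all: wild type with vehicle or P4 and PRKO with vehicle or P4, each at 4 h and at 40 h. The labels name neither the strain nor the construction of the PRKO allele. Each genotype and treatment was represented by pooled RNA from 5 mice. Whether the 3 arrays in a group had separate pools is not stated, so the p-values below measure the spread between arrays, which may be technical.

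Signals were scaled so that each array had the same trimmed mean of 500, and changes are on the log2(signal + 32) scale, which understates those of dim probe sets. Deposited array medians lay between 323.2 and 342.6, no member value was 0, and 7 member probe sets had a mean scaled signal under 100. The probe set for Pgr, the receptor gene itself, was dim. With vehicle at 4 h the wild-type arrays (140 to 149) lay above the PRKO arrays (121 to 130), as they did with P4 at 40 h (144 to 169 against 110 to 126). The ranges overlapped with P4 at 4 h (103 to 139 against 112 to 120) and with vehicle at 40 h (128 to 157 against 120 to 139), and the files do not say whether its probes fall inside the altered region, so it checks no label. Of 9 uterine identity genes (such as Hoxa10, Hoxa11 and Esr1) 8 were measured, with 12 probe sets, and none was at 0 on any array. Passing means an adjusted p under 0.05 (limma, Benjamini-Hochberg over 12422 probe sets).

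Collagens are secreted proteins built from 3 chains wound into a triple helix. Fibrillar collagens (types I, III and V in soft tissue) assemble into the load-bearing fibrils of stroma and muscle, network collagens such as type IV form the felt of basement membranes, and other classes decorate fibrils, form beaded filaments, span the cell membrane or carry heparan sulfate. Laminins are cross-shaped trimers of an alpha, a beta and a gamma chain that lie in basement membranes next to type IV collagen and bind integrins on epithelial, muscle and endothelial cells. The uterine wall holds both kinds of matrix, in the endometrial stroma, in the smooth muscle of the myometrium and under the epithelium, and it is remodelled with the hormonal cycle and in pregnancy.

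Upstream sequence is shown for those genes that passed in wild-type uteri at 40 h and that have an entry in the promoter table (RefSeq, GRCm38.p6). That table held 31 windows for 27 of the 40 genes, and had no entry for Col1a1 or Col5a2. Each line below is the 250 bases before the annotated start, 5′ to 3′ on the gene's strand, with the upstream-most start taken where a gene has several. Capitals mark, on either strand, the TATA box TATAAA, the CCAAT box CCAAT, the GC box GGGCGG and AGAACA, the core letters of the response element that the progesterone receptor shares with several other steroid receptors.
Col1a2, chr6:4505368-4505617, plus strand: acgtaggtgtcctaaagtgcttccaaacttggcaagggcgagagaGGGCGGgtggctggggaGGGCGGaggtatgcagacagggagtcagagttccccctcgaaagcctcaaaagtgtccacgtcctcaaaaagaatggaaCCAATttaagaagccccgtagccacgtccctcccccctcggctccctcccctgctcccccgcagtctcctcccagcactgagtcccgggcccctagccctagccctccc
Col3a1, chr1:45311288-45311537, plus strand: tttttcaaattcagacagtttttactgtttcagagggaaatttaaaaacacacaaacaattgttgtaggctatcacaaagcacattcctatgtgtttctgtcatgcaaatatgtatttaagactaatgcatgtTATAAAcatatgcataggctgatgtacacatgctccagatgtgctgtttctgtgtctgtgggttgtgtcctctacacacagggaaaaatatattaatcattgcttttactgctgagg
Col6a2, chr10:76623631-76623880, minus strand: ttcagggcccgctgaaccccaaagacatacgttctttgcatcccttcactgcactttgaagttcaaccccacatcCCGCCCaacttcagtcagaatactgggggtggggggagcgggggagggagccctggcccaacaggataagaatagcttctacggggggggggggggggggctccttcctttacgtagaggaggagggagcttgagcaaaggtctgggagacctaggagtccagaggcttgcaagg
Col9a1, chr1:24177360-24177609, plus strand: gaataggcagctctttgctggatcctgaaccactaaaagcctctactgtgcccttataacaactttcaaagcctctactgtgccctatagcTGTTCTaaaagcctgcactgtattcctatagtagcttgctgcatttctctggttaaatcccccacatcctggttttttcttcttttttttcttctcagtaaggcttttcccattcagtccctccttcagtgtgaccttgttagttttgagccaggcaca
The Col1a2 window held 2 GC boxes and 1 CCAAT box, the Col3a1 window 1 TATA box, the Col6a2 window 1 GC box and the Col9a1 window 1 AGAACA motif, with no overlap among the marked letters. Over all 31 windows of these genes TATAAA was found in 5, CCAAT in 10, GGGCGG in 14 and AGAACA in 2. Of 32851 windows of the same length in the whole table, 12.4% held TATAAA, 33.8% CCAAT, 32.7% GGGCGG and 16.1% AGAACA. The 4 genes shown thus shared no single one of the 4 motifs in these windows, and a match says only that the letters are there. In the reference order Col3a1 lies next to Col5a2 on chromosome 1, Col9a1 next to Col19a1 on chromosome 1 and Col6a2 next to Col6a1 on chromosome 10.

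After 40 h of P4 in wild-type uteri, chains of the fibrillar collagens I, III and V rose 1.58-fold to 1.88-fold, and Col6a2 and Col9a1 rose 1.71-fold and 1.47-fold. In all 6 of the 58 probe sets passed (10.3%), all of them higher after P4, where 1.54% of all 12422 probe sets passed and 0.716% passed as higher. No laminin and no network collagen passed. At an unadjusted p under 0.05 there were 23 member probe sets, against 1454 over the array. The probe sets come from pooled whole uteri, in which fewer cells of a type and less RNA per cell cannot be told apart, and the same holds for more.

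Type I collagen, the main fibril former of connective tissue, is made of Col1a1 and Col1a2 chains. Col1a1 (94305_at) read 2811, 3207 and 3957 in wild-type vehicle uteri at 40 h and 4671, 5719 and 6846 after P4. In PRKO uteri it read 2705, 2734 and 2984 with vehicle and 3512, 3856 and 4144 with P4. All P4 arrays lay above all vehicle arrays in both genotypes, and every wild-type P4 array lay above every array of the other 7 groups. The wild-type change was 0.78 ± 0.14 (log2 ± SE, 1.72-fold, adjusted p = 0.0041). In PRKO uteri it was 0.44 ± 0.14, which did not pass (adjusted p = 0.703). The difference between the genotypes, PRKO minus wild type, was -0.34 with a 95% interval of -0.75 to 0.08, so it did not show whether the response differed. At 4 h the same probe set lay between 2406 and 3490 over all 4 groups, which overlapped.

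A second Col1a1 probe set (103709_at) read 940, 1262 and 1353 with vehicle and 1117, 1822 and 1694 with P4 in wild-type uteri at 40 h. These groups overlapped, and the change of 0.36 ± 0.16 did not pass. The partner chain Col1a2 (101130_at) read 2812, 2851 and 3395 with vehicle and 4461, 5503 and 5772 with P4 in wild-type uteri at 40 h. After P4 in PRKO uteri it read 3012, 3613 and 4047, against 2609, 2895 and 3145 with vehicle. The wild-type groups were clear of each other, the PRKO groups overlapped, and again the 3 wild-type P4 arrays were above all others. The rise in wild-type uteri was 0.79 ± 0.14 (1.73-fold, adjusted p = 0.00436), and the PRKO value of 0.29 ± 0.14 did not pass. The genotype difference was -0.49 (95% interval -0.92 to -0.07, adjusted p = 0.527). A further Col1a2 probe set, 161156_r_at, showed a wild-type change of 0.06 ± 0.10, so the 2 Col1a2 probe sets did not read the same response.

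Type III collagen is a trimer of Col3a1 alone and is found with type I in soft, distensible tissue. Col3a1 (98331_at) read 2076, 2429 and 3117 with vehicle and 4263, 4647 and 5341 with P4 in wild-type uteri at 40 h. With vehicle in PRKO uteri it read 2295.0, 2652 and 2798, and with P4 3248, 3352 and 3508. The P4 arrays lay above the vehicle arrays in both genotypes, with a wider gap in wild type. The wild-type rise of 0.91 ± 0.16 (1.88-fold, adjusted p = 0.00384) was the largest log2 change among the 58 probe sets, and the PRKO value was 0.38 ± 0.16 (adjusted p = 0.703). The genotype difference was -0.52 ± 0.23 and did not pass (adjusted p = 0.539). The other 2 Col3a1 probe sets had wild-type changes of like size, 0.81 ± 0.22 (102990_at, adjusted p = 0.069) and 0.90 ± 0.34 (161984_f_at, adjusted p = 0.252), with wider errors. Neither passed, and 161984_f_at varied from 633 to 1544 within the P4 group alone.

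Type V collagen is a minor fibrillar collagen that joins type I in the fibril and sets its diameter. Its Col5a2 chain (92567_at) read 970, 981 and 1017 with vehicle and 1563, 1589 and 1603 with P4 in wild-type uteri at 40 h. In PRKO uteri it read 1025, 1050 and 1073 with vehicle and 969, 1172 and 1224 with P4. The wild-type groups were narrow and far apart, whereas the PRKO groups overlapped. The wild-type rise was 0.66 ± 0.10 (1.58-fold, adjusted p = 0.00087), the lowest adjusted p of the 58, and the PRKO value was 0.09 ± 0.10. The genotype difference of -0.58 ± 0.14 had the lowest unadjusted p of the 58 members in that comparison (0.000564) and did not pass over the array (adjusted p = 0.184). The other chain, Col5a1, read 296, 356 and 361 with vehicle and 373, 460 and 486 with P4 on 101080_at. Those arrays did not overlap, but the change of 0.35 ± 0.09 missed the threshold (adjusted p = 0.069), and a second Col5a1 probe set (93472_at) gave 0.01 ± 0.13.

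The other fibrillar chains are best known from cartilage and eye. Their wild-type changes at 40 h were 0.13 for Col2a1, 0.07 for Col11a2 and -0.07 for Col11a1, the lowest of the class, and all 3 were dim, with mean signals of 151 to 188. Over the 13 fibrillar probe sets the median change was 0.36, 12 of 13 were above 0 and 4 passed. Col1a1, Col1a2, Col3a1 and Col5a1 each had several of these probe sets, so the 13 are not separate genes. The median over all 12422 probe sets in the same comparison was 0.00. In PRKO uteri the fibrillar median was 0.09 with 9 of 13 above 0, against -0.04 over the array.

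**Figure D1:**
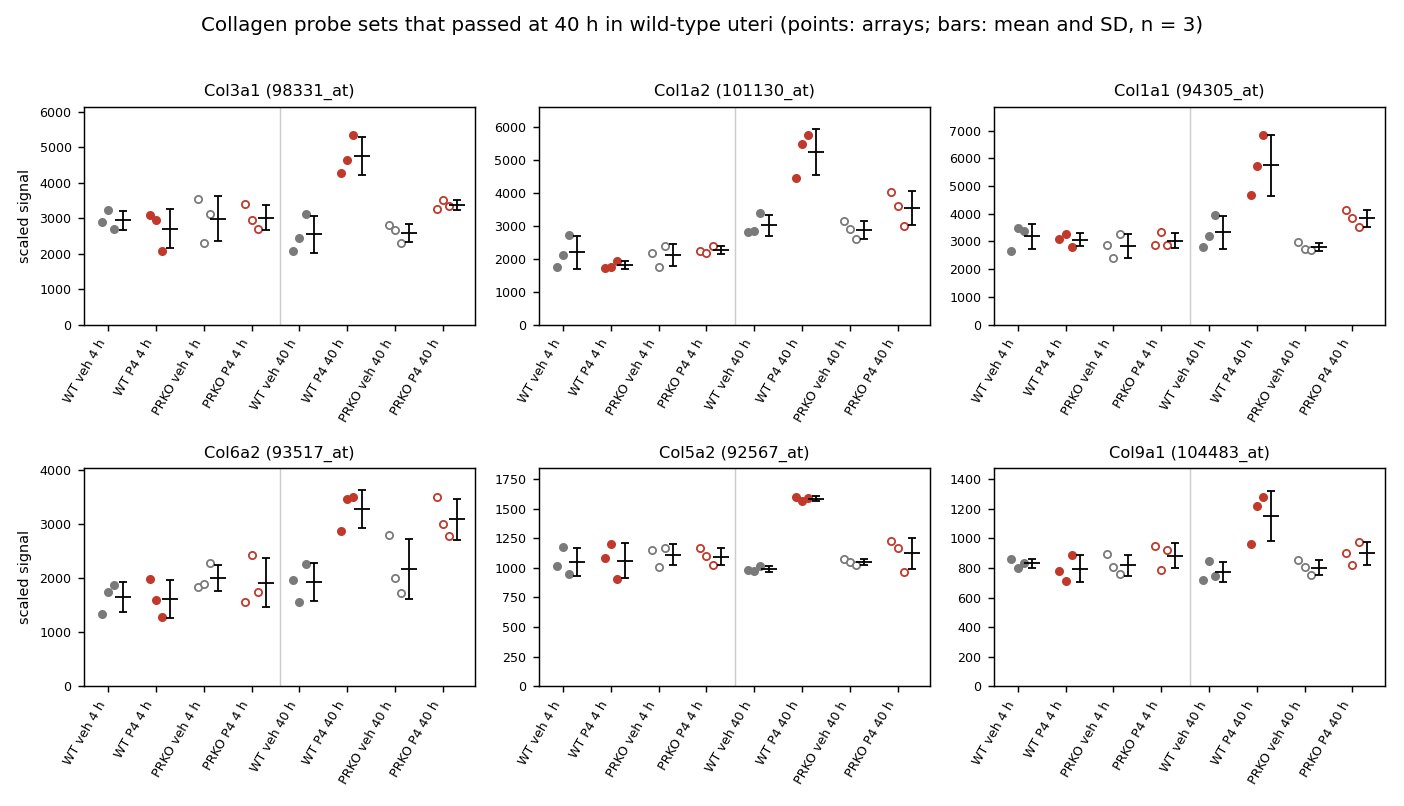
Scaled signal (vertical axis, from 0) of the 6 probe sets that passed in wild-type uteri at 40 h, by group; points are single arrays, grey for vehicle and red for P4, filled for wild type and open for PRKO, and the black bar beside them is the mean with its SD (n = 3). For Col1a1, Col1a2, Col3a1 and Col5a2 the 3 wild-type P4 arrays at 40 h lie above all 21 other arrays, while Col6a2 and Col9a1 share part of their range with PRKO uteri given P4. The probe sets were chosen by these same P4 arrays, so the ranking is a description only.

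Type VI collagen forms beaded filaments around cells from its Col6a1, Col6a2 and Col6a3 chains. Col6a2 (93517_at) read 1549, 1955 and 2252 with vehicle and 2872, 3460 and 3502 with P4 in wild-type uteri at 40 h. In PRKO uteri it read 1718, 1995 and 2792 with vehicle and 2767, 2991 and 3503 with P4. The wild-type groups did not overlap, the PRKO groups did by a narrow margin, and 2 of the PRKO P4 arrays reached into the wild-type P4 range. The wild-type rise was 0.77 ± 0.19 (1.71-fold, adjusted p = 0.0437), just inside the threshold. The call was lost in 12 of 24 fits that left out 1 array, among them all 6 that left out a wild-type 40 h array, with log2 values of 0.63 to 0.90 and adjusted p up to 0.233. The remaining 6 were WT P4 4 h replicate 2, PRKO vehicle 4 h replicate 2, PRKO P4 4 h replicate 3, PRKO vehicle 40 h replicate 2 and PRKO P4 40 h replicates 2 and 3. The PRKO change was 0.53 ± 0.19 (adjusted p = 0.703), and the genotype difference of -0.25 had a 95% interval of -0.81 to 0.32. Wild-type and PRKO values were close for the other chains: 0.34 ± 0.11 and 0.33 ± 0.11 for Col6a1 on 95493_at, 0.38 and 0.36 on 162459_f_at, and 0.28 and 0.26 for Col6a3. None of these passed in either genotype. The median of the 4 type VI probe sets was 0.36 in wild-type and 0.34 in PRKO uteri.

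Col9a1 encodes a chain of type IX collagen, which sits on the surface of fibrils and is best known from cartilage. Its probe set (104483_at) read 718, 745 and 848 with vehicle and 960, 1217 and 1284 with P4 in wild-type uteri at 40 h, against 750, 808 and 853 and 819, 905 and 974 in PRKO uteri. The wild-type groups did not overlap, but 1 PRKO P4 array lay above the lowest wild-type P4 array. The rise was 0.56 ± 0.11 (1.47-fold, adjusted p = 0.00845) in wild-type uteri, and the PRKO value was 0.16 ± 0.11. Without wild-type P4 40 h replicate 2 or 3 the adjusted p was 0.0587 or 0.0605. The other type IX chains did not pass: Col9a3 gave 0.04 and -0.09 on its 2 probe sets, and Col9a2 -0.14, the lowest of the fibril-associated class. That class had a median of 0.02 over 9 probe sets, with 5 of 9 above 0.

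Col15a1 and Col18a1 are multiplexins, collagens of basement membrane zones that carry heparan or chondroitin sulfate and release antiangiogenic fragments, endostatin in the case of Col18a1. Col15a1 (99637_at) read 951, 1442 and 1711 with vehicle and 1952, 2015 and 2017 with P4 in wild-type uteri at 40 h. The groups did not overlap, yet with the wide vehicle group the change of 0.57 ± 0.17 did not pass (adjusted p = 0.124), and in PRKO uteri it was 0.29 ± 0.17. The 5 Col18a1 probe sets gave wild-type changes of 0.55, 0.47, 0.40, 0.30 and -0.23 at 40 h, none of which passed. In PRKO uteri they gave 0.32, 0.33, 0.22, 0.35 and -0.08 in the same order of probe sets. The probe set below 0, 101880_at, thus stood apart from the other 4 in both genotypes.

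At 4 h no collagen or laminin probe set passed in wild-type uteri (0 of 58, against 0.708% of the array), and 7 of 58 had an unadjusted p under 0.05, against 774 of all. The 4 highest changes were on Col18a1. Its probe set 101881_g_at read 964, 1008 and 1127 with vehicle and 1256, 1617 and 1665 with P4 in wild-type uteri at 4 h, and 99638_at read 996, 1325 and 1428 against 1577, 1971 and 2058. All 3 P4 arrays lay above all vehicle arrays on both. The changes were 0.53 ± 0.14 (adjusted p = 0.0928) and 0.58 ± 0.16 (adjusted p = 0.139), and 101882_s_at and 162483_f_at gave 0.40 and 0.46. Without wild-type P4 4 h replicate 3, 101881_g_at passed at 0.65 ± 0.14 (adjusted p = 0.0241). Over all members, P4 arrays lay wholly above vehicle arrays for 5 of 58 (8.62%, against 3.65% of the array), which were 4 Col18a1 probe sets and Lama1. They lay wholly below for Col3a1 (102990_at and 161984_f_at), Col13a1 (102261_f_at and 102262_r_at), Col9a3 (102070_at) and Col7a1 (93383_at). The share of the array in that direction was not counted.

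Vehicle uteri of the 2 genotypes also differed on Col18a1 at 4 h. Probe set 101881_g_at read 1497, 1515 and 2013 in PRKO vehicle uteri, above the 964 to 1127 of wild type, a difference of 0.67 ± 0.14 (1.59-fold, adjusted p = 0.042). It was the only 1 of the 58 probe sets to pass in that comparison (0.185% of the array passed; 11 members and 624 probe sets in all had an unadjusted p under 0.05). PRKO uteri given P4 at 4 h read 1453, 1506 and 1917, within the range of their vehicle group or just below it, so that the wild-type vehicle group was the low one of the 4. The PRKO minus wild-type values in vehicle uteri were 0.39 to 0.58 for 99638_at, 101882_s_at and 162483_f_at and 0.03 for 101880_at, and none of these passed. The wild-type P4 change and this genotype difference share the same 3 wild-type vehicle arrays. The call was lost in 19 of the 24 fits without 1 array, among them each wild-type vehicle 4 h array in turn, at log2 values of 0.53 to 0.74 and adjusted p up to 0.308. At 40 h the 2 vehicle groups gave no passing member (0 of 58, against 0.0644% of the array), and 2 members and 382 probe sets had an unadjusted p under 0.05.

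**Figure D2:**
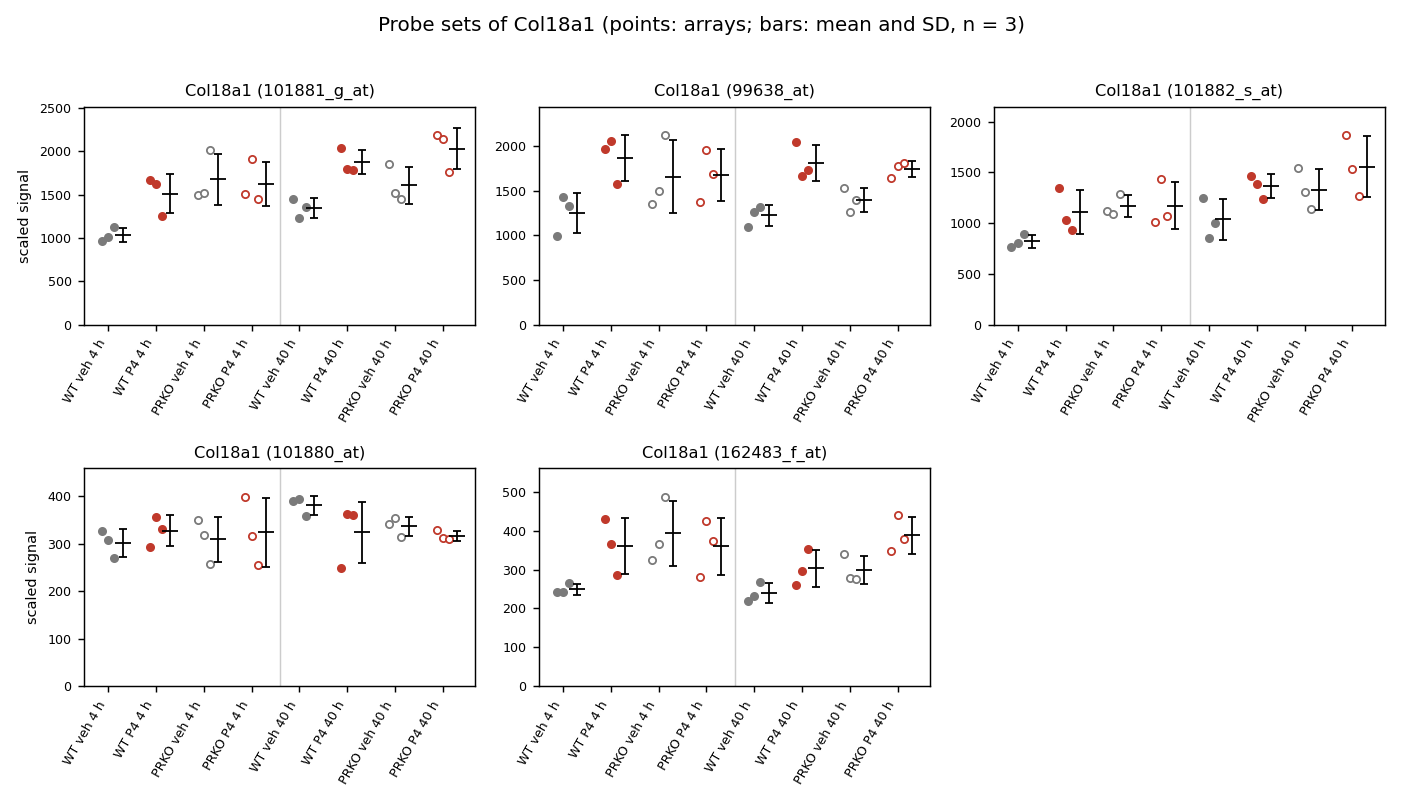
Scaled signal (vertical axis, from 0) of the 5 Col18a1 probe sets by group, drawn as single arrays (grey vehicle, red P4, filled wild type, open PRKO) with mean and SD (n = 3). On 4 of the 5 probe sets the wild-type vehicle arrays at 4 h lie below the P4 arrays, while 101880_at shows overlapping groups at 4 h.

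Type IV collagen, the scaffold of basement membranes, is mainly the product of Col4a1 and Col4a2, which are neighbours on chromosome 8. Col4a1 (101093_at) read 1564, 1727 and 2093 with vehicle and 2041, 2053 and 2120 with P4 in wild-type uteri at 40 h, a change of 0.21 ± 0.19. Col4a2 (101039_at) read 3607, 3744 and 3985 with vehicle and 3321, 3349 and 3635 with P4, a change of -0.14 ± 0.08. Both pairs of groups overlapped, and neither chain passed. Of the chains with more restricted sites, Col4a5 gave 0.26 ± 0.14 with P4 arrays of 430.5 to 461 against 348 to 390 (the highest of the network class), Col4a4 gave 0.03, and Col4a3, under a mean signal of 100, gave 0.04. Col8a1, which forms short-chain networks around vessels, had the lowest value of the class at -0.21 ± 0.07, with P4 arrays of 170 to 178 below vehicle arrays of 191 to 217. The 7 network probe sets had a median of 0.04, against 0.00 over the array.

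Among the remaining collagens, the epidermal anchoring fibril chain Col7a1 gave 0.10 ± 0.10. The membrane-spanning collagens ran from 0.01 (Col17a1, a hemidesmosome protein) to 0.07 (Col13a1), and Col26a1 gave -0.07. None of these passed in any comparison.

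The alpha chains of laminin give each trimer its cell-binding end. In wild-type uteri at 40 h Lama2, the chain of muscle basement membranes, read 1112, 1118 and 1134 with vehicle and 1293, 1374 and 1437 with P4. Lama5, common under epithelium, read 659, 697 and 850.1 with vehicle and 567, 598 and 611 with P4 on 99931_at. Both pairs of groups were apart, in opposite directions, and neither change passed (0.28 ± 0.08 and -0.29 ± 0.10). The values were 0.12 for Lama1, 0.00 for Lama3, -0.05 and -0.17 for Lama4 and -0.08 for the other Lama5 probe set, and none passed. The PRKO values were 0.16 for Lama2 and 0.03 for Lama5 on 99931_at.

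The beta and gamma chains showed no common direction either. Lamb3, a chain of epithelial laminin, read 272, 307 and 322 with vehicle and 214, 214 and 221 with P4 on 92759_at, and Lamb2, found in muscle and vessels, read 533, 538 and 541 against 425, 452 and 475. Both had all P4 arrays below all vehicle arrays, with changes of -0.42 ± 0.14 and -0.24 ± 0.10 that did not pass. Lamb3 on 161188_f_at gave -0.01, the widespread beta chain Lamb1 gave 0.33 and 0.16 on its 2 probe sets, and Lamc1, the gamma chain of most laminins, gave 0.17 and 0.09. The median of the 14 laminin probe sets was -0.01, with 7 above 0.

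Over all members, the wild-type P4 arrays at 40 h lay wholly above the vehicle arrays for 13 of 58 probe sets (22.4%), against 9.76% of the array. These were 5 fibrillar, 3 multiplexin, 2 type VI, 1 network, 1 fibril-associated and 1 laminin probe set. They lay wholly below for 7 (12.1%), close to the 10% of the array, and 5 of those 7 were laminins. In PRKO uteri the P4 arrays lay wholly above for 13 probe sets as well (22.4%, against 5.88% of the array). In both lists were 7 probe sets (53.8% of each): Col1a1, Col3a1, Col5a1, Col4a5, Col15a1, Col18a1 and Lama2. The overlap of the 2 lists over the whole array was not counted, so this share has no baseline. The PRKO P4 arrays lay wholly below for Col4a4, Col17a1, Col12a1 (92313_at and 92314_at) and Lama3, a direction not counted over the array.

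**Figure D3:**
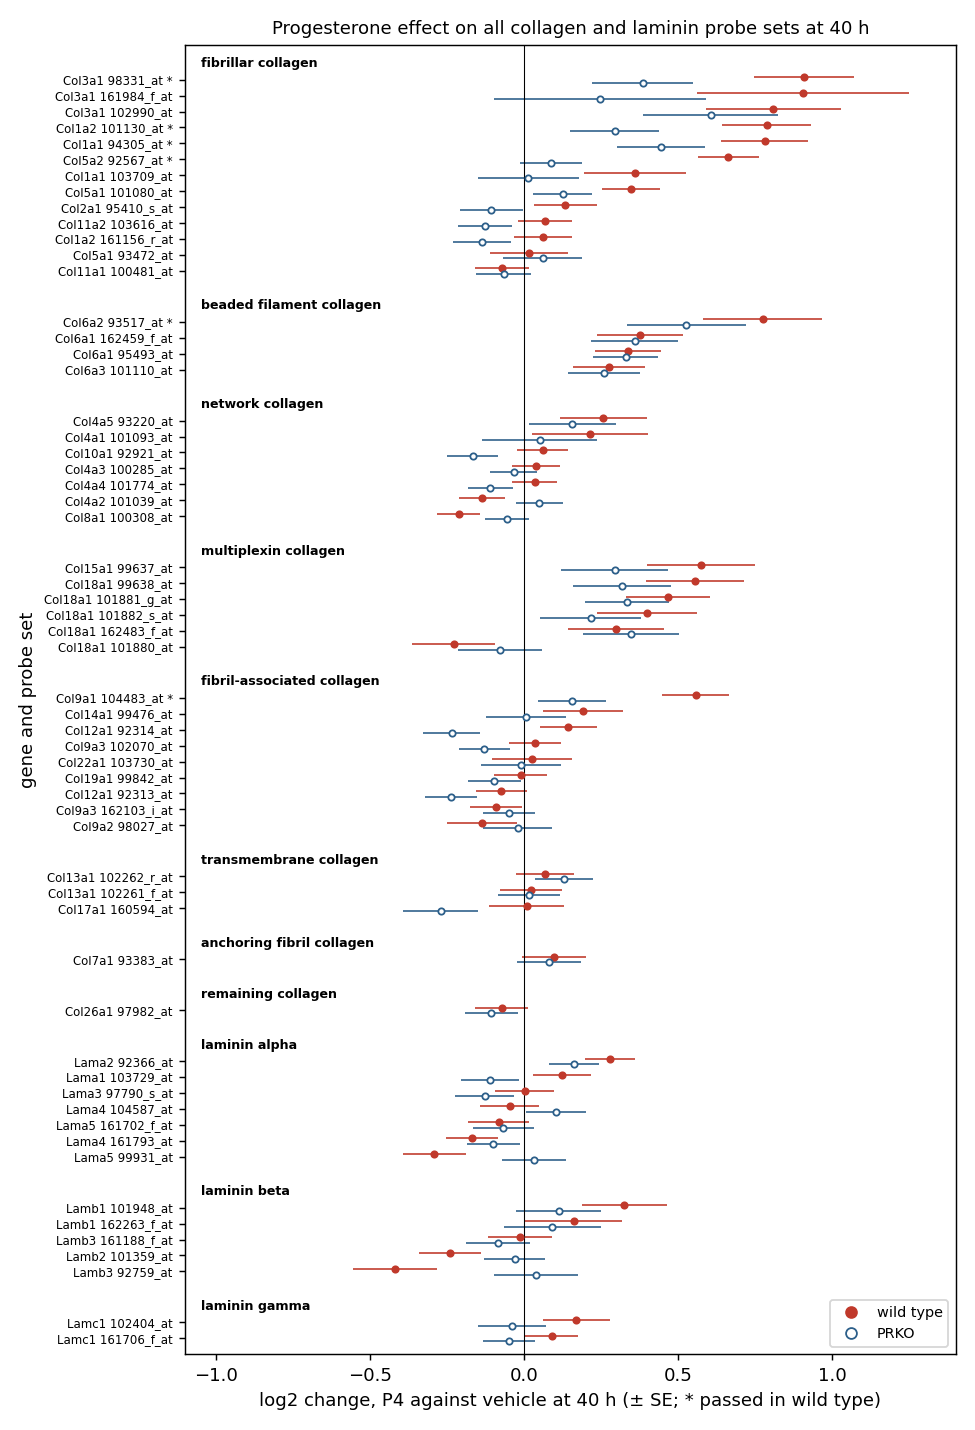
Change after P4 at 40 h (horizontal axis, log2 with SE) for all 58 collagen and laminin probe sets, grouped by class; filled red points are wild type, open blue points PRKO, and a star marks the 6 that passed in wild type. In wild type 12 of 13 fibrillar, 4 of 4 type VI and 5 of 6 multiplexin points lie to the right of 0. Laminin points lie on both sides of 0. Further right in wild type than in PRKO are 11 of 13 fibrillar, 4 of 4 type VI and 7 of 9 fibril-associated points. The same holds for 5 of 7 network, 4 of 6 multiplexin and 8 of 14 laminin points. The array medians were 0.00 in wild type and -0.04 in PRKO. The genotype difference, PRKO minus wild type, had an array median of -0.04, so most of the array also lay further right in wild type. That share was not counted, and the starred points, chosen by their wild-type change, are among the counts, which are a description only.

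In PRKO uteri, which lack the receptor, no member passed at 4 h or at 40 h (0 of 58 each, where 0% of the array passed at either time), and 3 and 12 members, against 236 and 831 probe sets, had an unadjusted p under 0.05. In the test of whether the effect of P4 differed between genotypes, no member passed at 40 h (0 of 58, against 0.105% of the array; 7 members and 1130 probe sets at an unadjusted p under 0.05). None passed that test at 4 h either (0 of 58, against 0.0966% of the array; 4 members and 434 probe sets). The genotype differences given above for the 6 probe sets that passed in wild type at 40 h use the same wild-type arrays that chose those probe sets, so their direction and intervals are a description only. The same holds for the ranking of their wild-type P4 arrays above the arrays of the other groups, which was not counted over the array.

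The wild-type response also differed between the times. P4 minus vehicle was 1.04 ± 0.20 larger at 40 h than at 4 h for Col1a2 (adjusted p = 0.0164), 0.65 ± 0.14 for Col5a2 (adjusted p = 0.0409) and 1.05 ± 0.23 for Col3a1 on 98331_at (adjusted p = 0.043). These 3 were the members that passed (3 of 58, 5.17%, against 0.475% of the array). At 4 h the changes themselves were -0.26 ± 0.14, 0.01 ± 0.10 and -0.14 ± 0.16, none of which passed. Col1a1 (0.83 ± 0.20, adjusted p = 0.078) and Col9a1 (0.62 ± 0.15, adjusted p = 0.0832) fell short of the threshold, and Col6a2 did not pass either. Without 1 array, Col1a2 was lost in 5 of 24 fits, Col5a2 in 14 and Col3a1 in 17. None of the 3 passed without wild-type vehicle 40 h replicate 1 or 2 or without wild-type P4 40 h replicate 2 or 3, and Col1a2 was also lost without wild-type P4 4 h replicate 1. The highest adjusted p over the 24 fits was 0.0587 for Col1a2, 0.102 for Col5a2 and 0.135 for Col3a1.

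**Figure D4:**
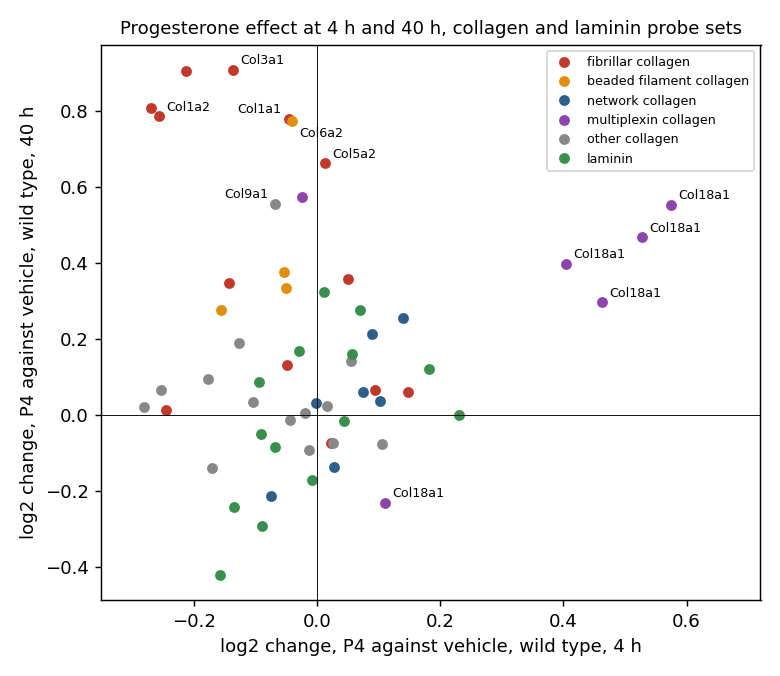
Change after P4 in wild-type uteri at 4 h (horizontal axis) against 40 h (vertical axis), both log2, with 1 point per collagen or laminin probe set, coloured by class. The passing fibrillar probe sets lie near or left of 0 at 4 h and above 0.6 at 40 h, whereas 4 Col18a1 points lie to the right of 0.4 at 4 h.

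Collagen needs dedicated enzymes and chaperones before it can leave the cell. Of 29 genes for collagen assembly and processing, 15 were measured, with 21 probe sets, and 1 rose in wild-type uteri at 40 h while none fell. This was Serpinh1, which encodes the collagen chaperone HSP47. It read 1859, 2028 and 2104 with vehicle and 3039, 3496 and 3753 with P4 in wild-type uteri at 40 h, and 1827, 2236 and 2285 against 2118, 2371 and 2377 in PRKO uteri. The wild-type arrays were apart and the PRKO arrays overlapped. The rise was 0.77 ± 0.13 (adjusted p = 0.0015) in wild type and the PRKO value 0.12 ± 0.13, with a genotype difference of -0.65 ± 0.18 (adjusted p = 0.29). That difference uses the same wild-type arrays by which Serpinh1 was chosen, so it is a description only. The median of the 21 probe sets was 0.03.

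Of 17 partners of collagen fibrils, 13 were measured with 18 probe sets, and 2 rose at 40 h. Dpt (dermatopontin, which binds decorin and collagen fibrils) read 740.2, 900.2 and 1035 with vehicle and 1366, 1623 and 1736 with P4. Sparc (osteonectin, a collagen-binding matrix protein) read 1348, 1781 and 1904 and then 2157, 2605 and 2723. Neither gene's groups overlapped, and the rises were 0.80 ± 0.17 (adjusted p = 0.0182) and 0.57 ± 0.13 (adjusted p = 0.0207), beside a median of -0.06 for the list. Of 12 basement membrane partners 10 were measured with 15 probe sets and none passed (median -0.00), and of 17 collagen and laminin receptors 12 were measured with 18 probe sets and none passed (median -0.07). No gene of these 4 lists passed at 4 h or in PRKO uteri.

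Other cell types and RNA quality moved with the 40 h comparison in wild-type uteri. Of 11 probe sets for adipocyte markers 6 fell after P4, and their summed signal was 7021 to 12139 with P4 against 17085 to 19414 with vehicle. Adipoq, Cidec, Car3, Retn and Lpl were the genes that fell, none of the 11 probe sets was at 0 on any array, and in PRKO uteri the sums were 14798 to 17433 against 17662 to 21311. The ratio of 3' to 5' Gapdh signal, where a higher value marks more degraded RNA, was 1.26 ± 0.04 with P4 and 1.53 ± 0.06 with vehicle (SD, n = 3). Smooth muscle markers summed to 42109 to 45465 with P4 and 36667 to 38436 with vehicle, with 0 of 11 probe sets passing and a median change of 0.30. Fibroblast markers other than collagens had a median of -0.07, with Dpt as the 1 of 11 probe sets that passed, and sums of 18348 to 20139 against 15635 to 20422. Epithelial markers had a median of -0.32, with 2 of 13 probe sets lower (Krt7 and Tspan8), and sums of 7802 to 8541 against 10457 to 10632. Skeletal muscle markers summed to 6663 to 6983 against 4811 to 5006, with Acta1 as the 1 of 17 probe sets that rose. Endothelial sums were 8414 to 8877 against 8524 to 9337, with Cldn5 lower as the 1 of 13 that passed, and macrophage sums were 6480 to 6773 against 5923 to 6229, with 0 of 15 passing. Uterine identity genes summed to 9465 to 10292 against 7387 to 8038, and Hoxa11 rose as the 1 of 12. None of the probe sets on these lists was at 0 on any array.

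With the adipocyte score of each array as a covariate, no member passed at 40 h. The 6 changes were then 1.07 for Col1a1, 0.90 for Col1a2, 1.00 for Col3a1, 0.57 for Col5a2, 1.04 for Col6a2 and 0.71 for Col9a1, with adjusted p of 0.386 to 0.966. No probe set of the array passed either, with a median SE over the array of 0.182 in place of 0.102. With the Gapdh ratio as a covariate the 6 passed again, with 1 more. What part these cell types and RNA quality have in the collagen result was not tested further. At 4 h, replicate 2 of both wild-type groups had Gapdh ratios of 3.67 (vehicle) and 3.25 (P4), against 1.25 to 1.86 on the other 4 h arrays.

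**Figure D5:**
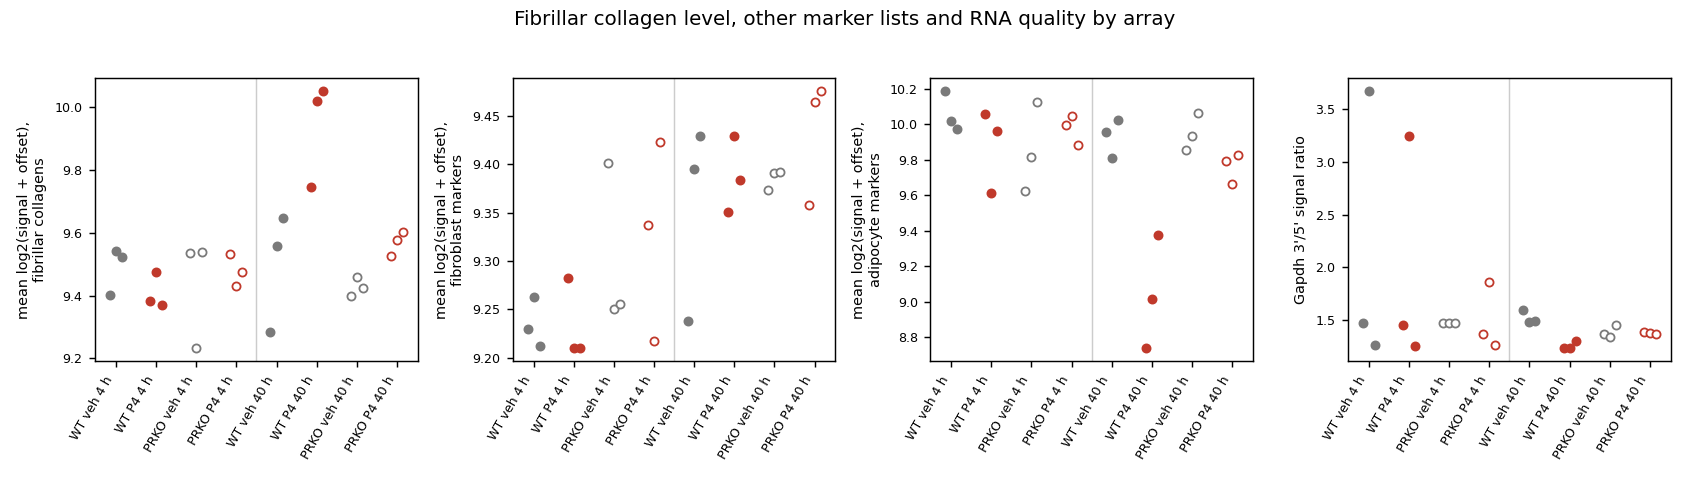
Values per array by group: mean log2(signal + offset) of the fibrillar collagens, of the fibroblast markers without collagens and of the adipocyte markers, and the 3' to 5' Gapdh signal ratio (axes do not start at 0; grey vehicle, red P4, filled wild type, open PRKO). The wild-type P4 arrays at 40 h are highest for fibrillar collagens and lowest for adipocyte markers, and lie among the other 40 h arrays for fibroblast markers.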

How the data were processed

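The deposited values are microarray intensity on a linear scale, 1 per probe set and array, made by the authors with MAS5 per the submitters' processing notes; its version and settings are not given there. Of 12488 probe sets 66 controls were left out and no other filter was set. Scaling set the mean of each array, trimmed by 2%, to 500, with factors of 0.954 to 1.03, and log2 was taken of the result plus 32. All 24 arrays were fitted by group with limma 3.58.1 in R 4.3.3 (two-sided moderated tests, intensity trend, 16 residual and 4.98 prior degrees of freedom), for 9 comparisons: P4 against vehicle by genotype and time, the genotype difference of that effect, PRKO against wild type with vehicle, and the wild-type effect at 40 h against that at 4 h. The number of arrays limits precision: the median SE of a log2 change was 0.116 over all tested probe sets and comparisons. The fit was tested on simulated data.

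The genes and lists were chosen with earlier results of these data known. Named are all members that passed anywhere with their other probe sets, the chains of collagens I, III, IV, V and VI and of laminin, the highest and lowest of each other class, and partner genes that passed in wild type. All 40 genes matched the reference by identifier. Probe sets ending in _f_at or _s_at may read more than 1 transcript, and probe positions are not given. Deviations from the group mean of same-numbered arrays correlated at 0.114, 0.516 and 0.35 between the wild-type 4 h groups, which counts as pairing by the rule used (all over 0.1), a hint from the data only since the labels state none. The other 3 comparisons of P4 with vehicle did not meet that rule. Alternatives varied the scaling, offset, dim filter, trend, arrays used, replicate block and covariates, and left out each array in turn.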

Additional observations from a re-analysis of the deposited data

Results flagged for a closer look

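In wild-type uteri 3 members had a P4 effect that differed between 4 h and 40 h by the test of that difference: Col1a2 (101130_at) by 1.04 ± 0.20, Col5a2 (92567_at) by 0.65 ± 0.14 and Col3a1 (98331_at) by 1.05 ± 0.23 on the log2 scale, each larger at 40 h (limma, adjusted p = 0.0164, 0.0409 and 0.043). Mice at 40 h had received 4 injections and mice at 4 h 1, so time and number of injections cannot be told apart.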

How the results depend on the processing

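For P4 at 40 h in wild-type uteri 6 members passed. The count was 12, with 11 higher, from the arrays of that time alone. Those added were Lamb3 on 92759_at (-0.42, limma adjusted p = 0.0091), Lama2 (0.28, 0.026), Col4a5 (0.26, 0.043), Col3a1 on 102990_at, and Col18a1 on 101881_g_at and 99638_at. With the adipocyte covariate the count was 0. With a replicate block it was 11, including the same 6; the block is no stated pairing there. It was 5 to 7 under the other alternatives and 4 to 7 without 1 array. For PRKO against wild type with vehicle at 4 h, the 1 call became 0 without rescaling, from the arrays of that time alone, with the adipocyte covariate and without both wild-type 4 h arrays of replicate 2, and was 0 to 1 without 1 array. The time difference had 3 calls, 1 without rescaling and 1 without those replicate 2 arrays, 2 with quantile normalization (Col3a1 was lost, adjusted p = 0.0756), 0 with the adipocyte covariate, 4 with the replicate block and 0 to 5 without 1 array. The genotype difference at 40 h had 0 calls and 1 with the Gapdh covariate. P4 at 4 h in wild-type uteri had 0 calls under all alternatives, the replicate block included, and 0 to 1 without 1 array. The cause of these moves was not tested. With the adipocyte covariate the errors for P4 at 40 h in wild-type uteri were wider, and the estimates moved as well.

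No member's called change turned its direction in any alternative or without any array. Both PRKO comparisons of P4 with vehicle, the genotype difference at 4 h and the vehicle comparison at 40 h had 0 calls throughout. The dim filter left 53 of 58 probe sets. The time difference could not be run on the arrays of 1 time alone. The replicate block changed no call at 4 h. The 3 arrays per group, of pooled RNA, limit all of these tests, and dim probe sets carry compressed changes.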
